A study of Mus musculus with 8 samples.

Results

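The comparison set 2 Sall4a-only arrays against 2 control arrays, 4 of the 8 arrays in the series. The material was mouse embryonic stem (ES) cells of the CJ7 line. Control cells carried a lentivirus without a short hairpin RNA (shRNA), and by their label express Sall4a and Sall4b. Sall4a-only cells carried an shRNA against Sall4 together with a Sall4a cDNA that the shRNA does not recognise. The remaining arrays were 2 from depleted cells, which carried the shRNA against both isoforms and no cDNA, and 2 from Sall4b-only cells, which carried the shRNA and an shRNA-immune Sall4b cDNA. Cells of all 4 groups were exposed to virus for 24 hours with polybrene at 2.5 mcg/mL, kept in medium with leukaemia inhibitory factor (LIF) and puromycin at 2 mcg/mL, and collected 48 hours after infection. The control lacked an shRNA, so an effect of carrying one and an effect of lower Sall4 cannot be told apart. Arrays sharing a group are labelled biological replicates, with nothing on how their cultures were kept separate, so a p-value measures the spread between these arrays, which may be partly technical.

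Sall4 is a zinc-finger transcription factor of the spalt family that helps to keep ES cells self-renewing and acts with the repressive NuRD chromatin complex. Alternative splicing yields a long isoform, Sall4a, and a shorter isoform, Sall4b, which lacks some of the zinc fingers. ES cells share the early embryo's choice between the epiblast, which forms the body, the primitive endoderm, which forms yolk sac, and the trophoblast, which forms placenta. Sall4 is known for its part in both of these choices.

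The Sall4a-only arrays stood apart from each other. Over 14027 genes the difference between the replicates had an SD of 0.622 log2 in Sall4a-only cells, against 0.272 to 0.415 in the other groups, and 1160 genes differed by over 1 log2 between the Sall4a-only replicates. Their correlation over genes was 0.968, below that of either of them with any array of the other groups. Genes on which both Sall4a-only arrays agree are therefore described apart from genes carried by replicate 1 or replicate 2 alone. All 37 measured members of a list of pluripotency genes were called present on all 8 arrays, as the ES cell label calls for. Precision is limited by having 2 arrays a group: the smallest two-sided p from exact permutation is 0.333.

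For Sall4 itself the array held a brighter probe set and a dimmer one. On the brighter one the log2 intensity was 13.88 and 13.75 on the control arrays and 13.16 and 13.14 on the Sall4a-only arrays, with 13.36 and 13.34 in depleted and 13.22 and 13.28 in Sall4b-only cells. On the dimmer one it was 8.5 and 8.38 in control, 7.25 and 7.31 in Sall4a-only, 7.10 and 7.29 in depleted and 7.72 and 7.17 in Sall4b-only cells. Both probe sets were thus lower in Sall4a-only than in control cells, without overlap, and neither lay clearly above the depleted arrays. The gene's log2 difference from control was -0.66 (SE 0.10, limma adjusted p = 0.224). The sources used here do not give where the probes lie relative to the cDNA, so these values do not check whether Sall4a was added back.

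By limma over all genes, 1 gene fell in Sall4a-only against control cells (0.00713% of the genes tested) and 0 rose (0%). At an unadjusted p under 0.05 there were 767 higher (5.47%) and 473 lower genes (3.37%). The gene that passed was Mmp12, and its call did not hold without either control array (adjusted p = 0.2544 and 0.4573), without either depleted array (0.1246), or without Sall4a-only replicate 1 (0.05953). Without Sall4a-only replicate 2 that group holds 1 array, and the fit takes the spread from the other groups. Their replicates differed less (SD 0.272 to 0.415 log2) than the Sall4a-only replicates (0.622). The genes that pass in such a fit are thus no result about Sall4a-only cells as a group. The Sall4a-only and control arrays did not overlap for 2499 higher (17.8%) and 1708 lower genes (12.2%).

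A gene was counted as apart on both Sall4a-only arrays when each of them lay at least 1 log2 from the control mean, in the same direction, and beyond both control arrays. This held for 89 lower (0.634%) and 31 higher genes (0.221%). A gene was counted as apart on replicate 1 alone when that array met the same limits while replicate 2 moved under 0.5 log2 in that direction or moved the other way. This held for 358 lower (2.55%) and 120 higher genes (0.855%). For replicate 2 alone the counts were the other way round in size, with 349 higher (2.49%) and 75 lower genes (0.535%). Among these, 58 genes were lower on replicate 1 and higher on replicate 2, and 1 gene was the reverse. The rules used the values that are given for these genes, which are a description and carry no further test. Just inside the limit for both arrays were Serpinb9g (-1.01 and -2.31 log2) and Catsperz (1.01 and 2.21), and just outside were Nlrp4c (-1.27 and -0.996) and Nefl (0.999 and 1.25), all 4 named for their place at the limit. With control replicate 1 left out the counts for both arrays were 142 lower and 70 higher, and with control replicate 2 left out 121 lower and 65 higher.

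**Figure D1:**
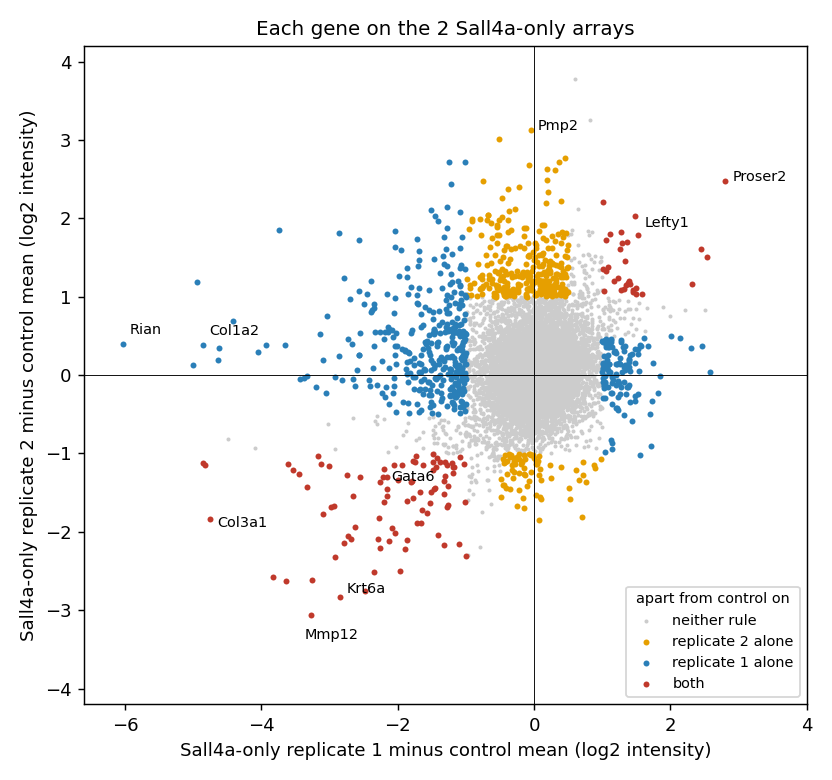
Each point is a gene, placed by its log2 intensity on Sall4a-only replicate 1 (x axis) and replicate 2 (y axis) minus the control mean; colours mark genes apart on both arrays (red), replicate 1 alone (blue) or replicate 2 alone (orange). The 358 genes lower on replicate 1 alone form a wide band to the left, reaching Rian at -6.03, while Mmp12 and Krt6a lie near the diagonal.

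The same rules gave fewer single-array genes in the other groups. In depleted against control cells 99 genes were higher (0.706%) and 30 lower (0.214%) on both arrays. On a single array 31 were higher (0.221%) and 37 lower (0.264%) by replicate 1, and 24 higher (0.171%) and 14 lower (0.0998%) by replicate 2. In Sall4b-only against control cells 132 were higher (0.941%) and 184 lower (1.31%) on both arrays. By replicate 1 alone 41 were higher (0.292%) and 63 lower (0.449%), and by replicate 2 alone 39 higher (0.278%) and 14 lower (0.0998%). All 3 comparisons share the control arrays. Sall4a-only cells thus had more genes on each single array than on both together in 3 of the 4 cases, the exception being the 75 genes lower on replicate 2 alone against 89 lower on both.

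The genes lower on both Sall4a-only arrays included secreted proteases and matrix proteins. Mmp12, macrophage metalloelastase, is a secreted protease that cuts elastin. Its log2 intensity was 8.15 and 8.19 on the control arrays and 4.91 and 5.11 on the Sall4a-only arrays, both of which called it not present. It fell by 3.17 on the log2 scale (SE 0.17, adjusted p = 0.0163), or 8.99-fold. The call was also lost in a fit blocked on replicate (adjusted p = 0.05544), with array weights (0.1659) and with only the 2 groups compared (0.3805). Depleted cells lay between at 6.27 and 6.11, and Sall4b-only cells at 4.91 and 5.34 were as low as Sall4a-only cells. Among 9 measured genes of a macrophage list Mmp12 was the only one apart on both arrays (0.634% lower over all genes). Adgre1, Itgam, Ptprc, Tyrobp, Aif1 and Ctss of that list were not measured here, and the 9 summed to intensities of 6871.5 and 6385.5 in control and 10472 and 5430.7 in Sall4a-only cells. The part of other cell types in this result was not tested. In bulk samples such as these, fewer cells of a type and less RNA per cell cannot be told apart.

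Mmp10, stromelysin-2, a second secreted protease, read 8.99 and 9.11 in control and 5.95 and 7.28 in Sall4a-only cells (log2 difference -2.44, SE 0.42, adjusted p = 0.262). For Mmp10 the depleted arrays read 8.36 and 8.37, and the Sall4b-only arrays, at 6.43 and 5.95, were about as low as the Sall4a-only arrays. Olr1, a scavenger receptor for oxidised low-density lipoprotein, read 9.49 and 9.87 against 5.84 and 7.10 (-3.21, SE 0.41, adjusted p = 0.185), while depleted cells stood at 8.90 and 8.39 and Sall4b-only cells at 4.83 and 4.85. Replicate 1 was the lower Sall4a-only array for both genes, and replicate 2 also stayed below both controls. The promoters of Mmp12, Mmp10 and Olr1 are shown because each matches TGANTCA, where N is any base, in the 120 bases before the start. In each the letters were TGAGTCA, a recognition sequence of the AP-1 family of Fos and Jun factors. The pattern TGANTCA is looser than that sequence and matches on both strands alike, and capitals mark the match. Sequences are from RefSeq, build GRCm38.p6, 5′ to 3′ on the gene's strand. Mmp12 is at chr9:7347254-7347373 on the plus strand (1 of its 2 listed starts), Mmp10 at chr9:7502222-7502341 on the plus strand and Olr1 at chr6:129507166-129507285 on the minus strand.
Mmp12: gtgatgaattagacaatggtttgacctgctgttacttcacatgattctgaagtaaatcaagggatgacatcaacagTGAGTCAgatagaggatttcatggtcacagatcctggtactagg
Mmp10: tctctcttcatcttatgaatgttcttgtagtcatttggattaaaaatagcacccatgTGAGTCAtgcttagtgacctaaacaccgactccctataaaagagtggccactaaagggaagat
Olr1: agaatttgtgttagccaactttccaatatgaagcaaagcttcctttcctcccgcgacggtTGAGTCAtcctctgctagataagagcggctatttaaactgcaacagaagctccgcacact

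The match began 44 bases before the start in Mmp12, 63 in Mmp10 and 60 in Olr1. In the 250 bases before the start, TGANTCA stood in 10 of the 65 genes lower on both arrays that had a listed promoter (15.4%). It stood in 32 of 266 genes lower on replicate 1 alone (12%), in 658 of 11286 genes tested (5.83%) and in 2217 of all 32851 listed promoters (6.75%). Among genes higher on both arrays it stood in 1 of 19 (5.26%). These counts are of the looser pattern, with any base at N, and not of TGAGTCA alone. A match is a description of the letters and shows neither binding nor use. Besides the 3 promoters printed, Krtap4-16 and Sprr1b, described next, were among the 10. Of 18 measured AP-1 and immediate early genes, 0 were apart on both arrays, which is close to the shares over all genes (0.634% lower and 0.221% higher). Dusp4, a phosphatase that inactivates ERK, was lower on replicate 1 alone (10.08, with 12.11 and 12.64 in control and 12.25 on replicate 2). So was Fosl2, a Fos relative (11.34, with 12.41 and 12.70 in control and 12.61 on replicate 2), and Fos was lower on replicate 2 alone (10.07, with 10.87 and 11.30 in control and 10.66 on replicate 1).

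Collagens and other matrix proteins were apart to unlike extents on the replicates. Col5a2, a chain of fibrillar type V collagen, read 10.94 and 10.65 in control and 7.16 and 8.17 in Sall4a-only cells (-3.13, SE 0.42, adjusted p = 0.206), with 11.96 and 11.74 in depleted cells. Col3a1, type III collagen, read 10.78 and 10.01 in control, 5.64 on Sall4a-only replicate 1 and 8.55 on replicate 2 (-3.30, SE 0.87, adjusted p = 0.404). Both collagens were below every control and depleted array on both Sall4a-only arrays, and replicate 1 was the lower. The Sall4b-only arrays read 9.14 and 10.08 for Col5a2, above both Sall4a-only arrays. For Col3a1 they read 7.10 and 7.30, below Sall4a-only replicate 2, so that fall was shared by Sall4b-only cells. Tgfbi, a matrix protein induced by TGF-beta, read 11.69 and 11.13 against 9.13 and 9.59. Ptn, the secreted growth factor pleiotrophin, read 10.77 and 10.29 against 7.59 and 8.86. Srgn, the core protein of the granule proteoglycan serglycin, read 12.28 and 12.76 against 9.73 and 10.38. Wnt5a, a Wnt ligand of the non-canonical kind, read 9.54 and 9.40 against 6.91 and 8.17 (-1.93, or -1.34 over the mean of its probe sets). In each of these 4 genes the groups did not overlap, and adjusted p ran from 0.210 in Tgfbi to 0.319 in Ptn. For Wnt5a the Sall4b-only arrays, at 7.17 and 6.98, were also below control, while the depleted arrays read 10.025 and 9.98.

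Some genes of stratified and cornified epithelium were lower on both arrays, while the squamous keratinocyte list as a whole went both ways. Krt6a, a keratin of activated keratinocytes, read 8.42 and 8.81 in control and 5.77 and 5.79 on the Sall4a-only arrays, with a present call on neither (7.15-fold lower, SE 0.24 log2, adjusted p = 0.0773). Its 3 probe sets differed from the control mean by -1.67 to -2.85 log2 on replicate 1 and by -1.79 to -2.83 on replicate 2. Krt14, the keratin of basal keratinocytes, read 8.03 and 8.23 against 6.69 and 6.96 (-1.31, SE 0.22, adjusted p = 0.252). The 2 Sall4a-only arrays lay close together for both keratins. Sprr1b, a cornified envelope precursor, read 5.39 and 6.004 against 4.61 and 4.65. Lce1d, of the late cornified envelope family, read 7.16 and 6.86 against 5.11 and 4.79. Krtap4-16, a keratin-associated protein of hair, read 7.01 and 6.95 against 4.24 and 4.92 (5.26-fold lower, adjusted p = 0.120). With a floor of 32 its log2 difference shrank from -2.40 to -1.98. Lce1d and Krtap4-16 belong to families of near-identical genes, so their probe sets may read relatives and their identity is uncertain. The squamous keratinocyte list, with 14 measured members, holds neither Lce1d nor Krtap4-16. Of the 14, 3 were lower on both arrays (Krt6a, Krt14 and Sprr1b) and 0 higher, with 0.634% and 0.221% over all genes. On replicate 1, 8 lay below the control mean and 6 above it, and on replicate 2, 5 lay below and 9 above. Over all genes 6291 and 6327 of 14027 lay below on the replicates. Ivl, the envelope protein involucrin, differed by -1.35 on replicate 1 and 1.11 on replicate 2, and Krtdap, a keratinocyte differentiation protein, by 1.20 and 0.01. The list's median difference was -0.25 on replicate 1 and 0.28 on replicate 2, with 0.032 and 0.036 over all genes. For Lce1d the depleted arrays, at 5.12 and 4.57, were as low as the Sall4a-only arrays. Krt6a read 7.06 and 7.01 in depleted and 6.24 and 5.59 in Sall4b-only cells, and Krt14 7.25 and 7.16, then 6.90 and 6.31. Krtap4-16 read 5.15 and 5.50 in depleted and 4.45 and 4.37 in Sall4b-only cells, and Sprr1b 4.81 and 5.33, then 4.78 and 4.56. The depleted and Sall4b-only arrays were thus below both control arrays for these genes as well.

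Other genes of the set encode surface proteins and enzymes. Dynap, which encodes a dynactin-associated membrane protein, read 7.10 on both control arrays, 3.85 and 4.49 in Sall4a-only cells, 7.55 and 7.62 in depleted and 4.59 and 4.26 in Sall4b-only cells. It was called present on neither Sall4a-only array and was 7.66-fold lower than control (SE 0.23 log2, adjusted p = 0.0703). With a floor of 32 the log2 difference shrank from -2.94 to -2.10, so the size of the fold depends on how dim values are treated. The depleted arrays thus lay with the control arrays and the Sall4b-only arrays with the Sall4a-only arrays. Klb, the co-receptor beta-klotho for endocrine fibroblast growth factors, read 8.99 and 9.29 against 7.10 and 7.13. Hkdc1, a hexokinase, read 8.25 and 8.77 against 6.22 and 6.42 and was called present on neither Sall4a-only array. Lpar3, a receptor for lysophosphatidic acid, read 6.51 and 7.84 against 4.70 and 4.42, and its difference of -2.62 was -3.28 without control replicate 1 and -1.95 without control replicate 2. In these 3 genes Sall4b-only replicate 1 lay highest of the Sall4 shRNA arrays, at 9.06, 7.99 and 8.15 in that order, and the adjusted p against control ran from 0.252 to 0.437. Efhc2, an EF-hand protein, read 9.28 and 8.88 against 6.73 and 6.56 (-2.43, SE 0.37, adjusted p = 0.210), and Nxf7, of the nuclear RNA export factor family, read 8.23 and 9.20 against 6.46 and 6.51. Hmga2-ps1, annotated as a pseudogene, read 8.96 and 8.90 against 6.01 and 6.61; its parent gene Hmga2 may share its probes, so its identity is uncertain.

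**Figure D2:**
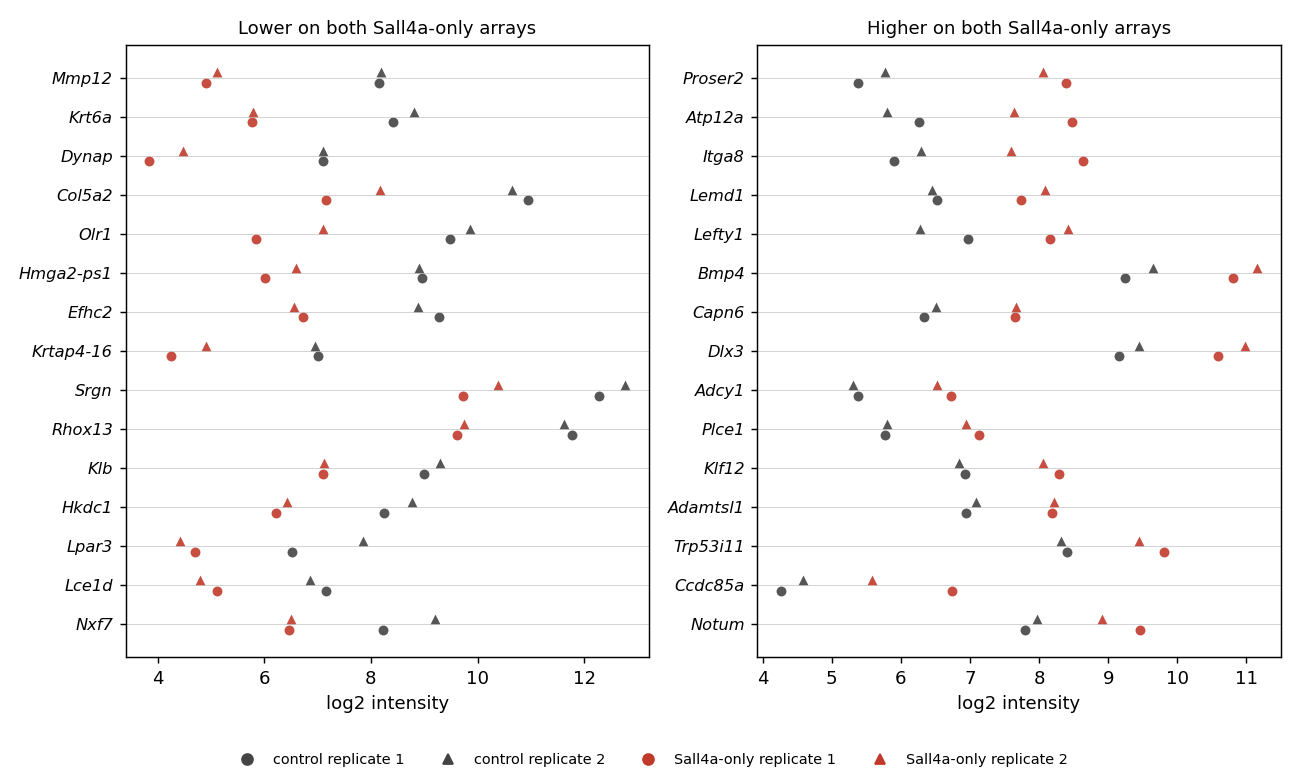
Log2 intensity on the control (grey) and Sall4a-only (red) arrays, replicate 1 as circles and replicate 2 as triangles, of the 15 genes with the widest gap between groups in each direction. The 4 arrays of Mmp12 fall in 2 tight pairs, whereas Col5a2 and Olr1 (lower) and Itga8 and Ccdc85a (higher) spread by about 1 log2 or more between the Sall4a-only replicates.

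Germ line genes were also among those lower on both arrays. Rhox13, a homeobox gene of the X-linked reproductive cluster, read 11.76 and 11.62 in control, 9.61 and 9.74 in Sall4a-only, 11.81 and 11.83 in depleted and 10.26 and 11.51 in Sall4b-only cells. The Sall4a-only arrays were the lowest of the 8 (-2.01 against control, SE 0.37, adjusted p = 0.280). Asz1, needed for piRNA production in the male germ line, read 7.61 and 7.44 against 4.86 and 5.98 (adjusted p = 0.386), and Sohlh2, a helix-loop-helix factor of early germ cells, read 10.20 and 10.54 against 8.58 and 9.01 (adjusted p = 0.353). For both genes the Sall4a-only arrays were again the lowest of the 8. Of 19 measured germ cell genes, 3 were lower on both arrays (0.634% over all genes). On replicate 1 alone 0 were apart, with 0.855% higher and 2.55% lower over all genes. The list's median was 0.07 on replicate 1 and -0.64 on replicate 2, so the list as a whole differed between the replicates.

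Primitive endoderm genes were lower on both arrays as a list. Its median difference was -0.87 on replicate 1 and -0.48 on replicate 2, and 20 and 18 of 25 measured members lay below the control mean, against 6291 and 6327 of 14027 genes. Of the 25, 4 were lower on both arrays (0.634% over all genes), 5 on replicate 1 alone (2.55%) and 1 on replicate 2 alone (0.535%). Plat, among those 5, was also the 1 member higher on replicate 2 alone (2.49% over all genes). By limma 0 members passed in either direction, and 9 were lower at an unadjusted p under 0.05 (3.37% over all genes). The summed intensity of the 25 was 61925 and 71649 on the control arrays, 51224 and 57833 on the Sall4a-only arrays, 62961 and 67819 in depleted and 69154 and 55307 in Sall4b-only cells.

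Of the 4 members lower on both arrays, Thbd, thrombomodulin, a surface protein of parietal endoderm, had the largest difference, at 10.82 and 10.03 in control and 7.45 and 8.74 in Sall4a-only cells (-2.33, SE 0.56, adjusted p = 0.355). The other 3 were transcription factors. Gata6, which specifies the primitive endoderm, read 9.34 and 9.88 in control and 7.4 and 8.31 in Sall4a-only cells (-1.76, SE 0.47, adjusted p = 0.416), with 8.77 and 8.49 in depleted and 9.23 and 8.03 in Sall4b-only cells. Sox17, which acts downstream of it, read 9.16 and 10.17 in control and 8.14 and 8.03 in Sall4a-only cells (-1.58, SE 0.55, adjusted p = 0.507), with 10.52 on Sall4b-only replicate 1. Hnf4a, a nuclear receptor of visceral endoderm, read 7.63 and 8.01 in control, 6.07 and 6.71 in Sall4a-only, 8.005 and 8.12 in depleted and 8.39 and 8.21 in Sall4b-only cells. Hnf4a was thus below all 6 other arrays on both Sall4a-only arrays (-1.43, SE 0.24, adjusted p = 0.252 against control, and -1.91, SE 0.24, adjusted p = 0.215 against Sall4b-only cells). The second Hnf4a probe set differed from the control mean by -0.017 and -0.26 log2 on the replicates, so the probe sets of this gene disagree, and their mean gave -0.78 against control. Both probe sets of Gata6 and both of Sox17 were below the control mean on both arrays.

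Other members lay below control on both arrays without reaching the limit of 1 log2 on each. Gata4, the partner of Gata6, read 9.91 and 10.47 against 9.32 and 8.85 (-1.11, SE 0.39, adjusted p = 0.516). Sox7 and Foxa2, further endoderm transcription factors, differed from the control mean by -1.19 and -1.24 on replicate 1 and by -0.91 and -0.80 on replicate 2. Pdgfra, the receptor that marks primitive endoderm precursors, differed by -0.86 and -0.87. All 4 genes were below both control arrays on both Sall4a-only arrays. The basement membrane laminin gene Lamb1, in contrast, was lower on replicate 1 alone, at 10.94 against 11.75 and 12.39 in control and 12.18 on replicate 2. Plat, Cubn and Foxq1 of the list also differed between the replicates. They lay -1.69, -2.56 and -1.37 log2 from the control mean on replicate 1, and 1.47, 0.54 and 0.24 on replicate 2.

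**Figure D3:**
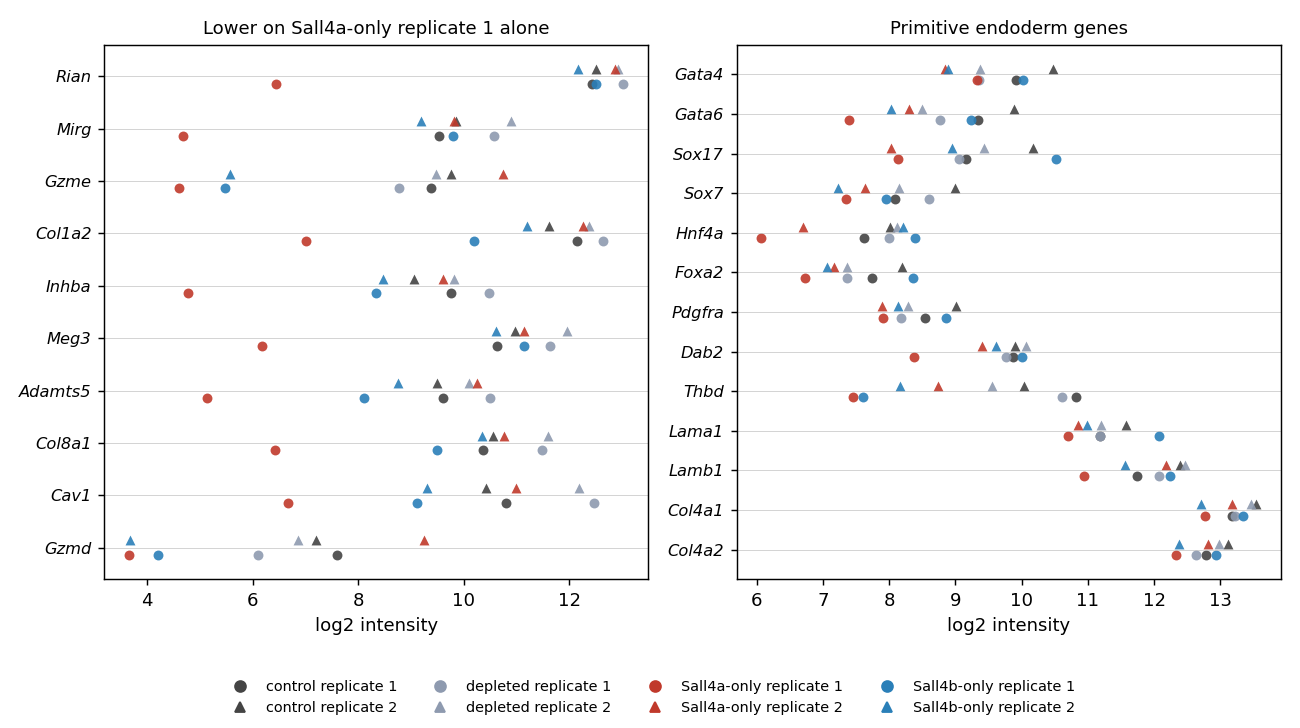
Log2 intensity on all 8 arrays, coloured by group, with replicate 1 as circles and replicate 2 as triangles. On the left are the 10 genes furthest below control on Sall4a-only replicate 1 alone. On the right are 13 of the 25 measured primitive endoderm genes, without Plat, Cubn and Foxq1. On the left Sall4a-only replicate 1 sits far below the other arrays for Rian, Mirg and Meg3, while on the right both Sall4a-only arrays of Gata6, Sox17 and Hnf4a sit below the control arrays.

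Among the 31 genes higher on both arrays were ligands and antagonists of the TGF-beta family. Lefty1, a secreted antagonist of Nodal, read 6.97 and 6.27 in control and 8.15 and 8.41 in Sall4a-only cells, 3.16-fold higher (SE 0.28 log2, adjusted p = 0.254). Lefty2, its neighbour in function, read 8.07 and 7.45 against 9.09 and 8.86, 2.32-fold higher (SE 0.22 log2, adjusted p = 0.280). The Sall4a-only arrays did not overlap with control for either gene, and depleted (8.04 and 7.59 for Lefty1, 8.59 and 8.75 for Lefty2) and Sall4b-only arrays (8.02 and 7.73, 8.89 and 8.83) also lay above control. Lefty1 and Lefty2 are close in sequence, and whether a probe set reads both was not tested. Nodal itself read 11.81 and 11.45 in control and 11.89 and 11.52 in Sall4a-only cells (0.08, SE 0.18, adjusted p = 0.942). Of 16 measured genes of the Nodal and Lefty list, 2 were higher on both arrays (0.221% over all genes). By any of the rules 0 were lower, with 0.535% to 2.55% a rule over all genes. Pcsk6, a convertase that cuts Nodal, was higher on replicate 1 alone (9.51, against 8.83 and 8.11 in control).

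Bmp4, a ligand that supports self-renewal together with LIF, read 9.25 and 9.65 in control and 10.81 and 11.15 in Sall4a-only cells (1.53, SE 0.39, adjusted p = 0.389), with 8.92 and 10.10 in depleted and 10.76 and 11.09 in Sall4b-only cells. Sall4a-only and Sall4b-only arrays thus lay together for Bmp4, above all control and depleted arrays. Of its usual targets, Id1 and Id3, inhibitors of differentiation, were lower on replicate 1 alone. Id1 read 11.56 and 11.10 in control, 10.26 on replicate 1 and 11.98 on replicate 2, and Id3 read 12.24 and 12.09, 11.15 and 12.70, so replicate 2 lay above both controls for each. Notum, a secreted enzyme that inactivates Wnt proteins, read 7.79 and 7.98 against 9.47 and 8.91 (1.31, SE 0.20, adjusted p = 0.210).

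Trophoblast genes went both ways. Cdx2, the homeobox factor that specifies trophoblast, read 8.61 and 7.71 in control, 9.44 and 9.99 in Sall4a-only, 8.29 and 8.69 in depleted and 7.96 and 8.40 in Sall4b-only cells, 2.94-fold above control (SE 0.36 log2, adjusted p = 0.347). Dlx3, a homeobox factor of placenta and skin, read 9.15 and 9.44 in control, 10.59 and 10.98 in Sall4a-only, 8.08 and 8.51 in depleted and 9.68 and 9.70 in Sall4b-only cells. For both homeobox genes the Sall4a-only arrays were the highest of the 8. Dlx3 differed by 1.48 from control (SE 0.21, adjusted p = 0.210), by 2.49 from depleted (SE 0.21, adjusted p = 0.0624) and by 1.09 from Sall4b-only cells (SE 0.21, adjusted p = 0.517). Plac1, a placental gene on the X chromosome, was lower at 7.21 and 7.23 against 8.40 and 8.93 in control (-1.45, SE 0.33, adjusted p = 0.338). Krt7, a trophoblast keratin, was higher on replicate 1 alone (13.15, against 11.42 and 12.07 in control and 12.01 on replicate 2). Of 23 measured members 2 were higher and 1 lower on both arrays (0.221% and 0.634% over all genes). The list's median differed from control by -0.015 on replicate 1 and by -0.10 on replicate 2.

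Proser2, a proline- and serine-rich protein, had the widest gap of the higher genes. It read 5.38 and 5.78 in control, 5.3 and 5.85 in depleted, 8.39 and 8.05 in Sall4a-only and 7.41 and 7.29 in Sall4b-only cells. The Sall4a-only arrays were the highest of the 8, 6.23-fold above control (SE 0.24 log2, adjusted p = 0.0887) and 2.65 log2 above depleted cells (SE 0.24, adjusted p = 0.0671). With no filter on present calls, a brighter probe set with a present call on fewer than 2 arrays stood for Proser2, and the difference from control was 0.33 log2, so the value rests on the probe set chosen. Capn6, a calpain without protease activity, was likewise highest in Sall4a-only cells, at 7.65 and 7.66 against 6.34 and 6.51 in control, 6.03 and 6.68 in depleted and 6.47 and 6.53 in Sall4b-only cells (1.24, SE 0.21, adjusted p = 0.263). Trp53i11, a p53-inducible gene, read 9.81 and 9.45 against 8.40 and 8.32 in control, 8.32 and 8.45 in depleted and 8.91 and 8.81 in Sall4b-only cells. These 3 genes were above all 6 other arrays, as were 11 of the 31 in all. Of the 89 lower genes, 34 were below all 6. Over all 14027 genes, 730 lay apart from the other 6 arrays in either direction. The rule had already placed the 31 and the 89 genes beyond both control arrays.

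Other higher genes were shared with the shRNA groups. Atp12a, a proton pump of the non-gastric H,K-ATPase kind, read 6.26 and 5.80 in control, 8.48 and 7.64 in Sall4a-only and 8.83 and 9.22 in depleted cells, above Sall4a-only. Klf12, a zinc-finger repressor, read 6.93 and 6.85 in control, 8.29 and 8.05 in Sall4a-only, 7.78 and 8.01 in depleted and 8.63 and 8.54 in Sall4b-only cells (1.28 against control, SE 0.14, adjusted p = 0.144). Itga8, an integrin subunit, read 5.90 and 6.30 in control and 8.64 and 7.6 in Sall4a-only cells, with 7.54 and 7.80 in depleted cells. All non-control arrays were above both control arrays for these 3 genes. Adcy1, an adenylate cyclase, was called present on neither control array and was 2.43-fold higher in Sall4a-only cells. Podxl, the sialomucin podocalyxin of the ES cell surface, read 10.96 and 11.23 against 12.15 and 12.42 (1.19, SE 0.32, adjusted p = 0.416).

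The core pluripotency factors lay close to control on average, and the replicates leaned apart. Pou5f1 (Oct4) read 13.39 and 12.91 in control and 13.50 and 13.15 in Sall4a-only cells, a log2 difference of 0.18 (SE 0.20). Nanog read 13.46 and 13.27 against 13.53 and 13.35 (0.07, SE 0.13), and Sox2 12.53 and 12.35 against 12.85 and 12.19 (0.08, SE 0.22). The groups overlapped for all 3. Klf4, a factor downstream of LIF, differed by 0.27 on replicate 1 and -0.72 on replicate 2, and Esrrb, an orphan nuclear receptor of naive ES cells, by 0.56 and -0.40. Adjusted p ran from 0.853 to 0.968 over these 5 genes, and the sign of each turned when 1 array was left out. Over the 37 measured pluripotency genes the median was 0.37 on replicate 1 and -0.021 on replicate 2. Above the control mean lay 30 and 18 members, with 7736 and 7700 of 14027 over all genes. That 0 were apart on both arrays is close to the shares over all genes (0.221% higher and 0.634% lower).

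Replicate 1 alone carried the long noncoding RNAs of the imprinted Dlk1-Dio3 region. In that region Meg3, Rian and Mirg are transcribed from the maternal chromosome and Dlk1, a Notch ligand relative, from the paternal one. Rian read 12.44 and 12.51 on the control arrays, 12.87 on Sall4a-only replicate 2 and 6.44 on replicate 1, and 12.16 to 13.02 on the other 4 arrays. Mirg read 9.53 and 9.85 in control, 9.82 on replicate 2 and 4.68 on replicate 1, and Meg3 10.63 and 10.97 in control, 11.14 on replicate 2 and 6.18 on replicate 1. Replicate 1 was the lowest of the 8 arrays on all 4 Rian, all 11 Meg3 and both Mirg probe sets. The Rian probe sets differed from the control mean by -6.03 to -3.85 log2 on that array and by -0.13 to 0.88 on replicate 2. Because the arrays disagreed, the mean difference of Rian, -2.82, had an SE of 1.83 (adjusted p = 0.716). Dlk1 was higher on both arrays, at 9.42 and 9.04 against 8.42 and 7.43 in control (1.30, SE 0.64, adjusted p = 0.632). Depleted cells read 8.56 and 8.52 and Sall4b-only cells 8.945 and 10.89, all above both control arrays. Rtl1 and Dio3 were not measured here.

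The promoter of Meg3 is shown because Meg3 had the most probe sets of these RNAs, all lowest on replicate 1. It holds the palindrome TGACGTCA, the cAMP response element, in capitals, beginning 57 bases before 1 of its 2 listed starts, at chr12:109540876-109540995 on the plus strand (RefSeq, build GRCm38.p6). Of all 32851 listed promoters 508 hold these letters in the 250 bases before the start (1.55%).
Meg3: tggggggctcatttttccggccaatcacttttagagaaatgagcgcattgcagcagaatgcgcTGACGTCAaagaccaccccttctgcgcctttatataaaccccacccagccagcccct

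Fibroblast and matrix genes made up a further block that was low on replicate 1 alone. Col1a2, a chain of type I collagen, read 12.14 and 11.62 in control, 12.27 on Sall4a-only replicate 2 and 7.02 on replicate 1. Its partner chain Col1a1 read 13.13 and 12.70, 13.16 and 10.06 in the same order. Cav1, which forms caveolae, read 10.81 and 10.41, 10.997 and 6.68, and Inhba, an activin subunit, 9.77 and 9.06, 9.60 and 4.77. In these 4 genes replicate 2 lay within 0.4 log2 of the control mean and replicate 1 at least 2.86 log2 below it. Col8a1, a short-chain collagen, and Adamts5, a protease that cuts aggrecan, differed by -4.04 and -4.42 on replicate 1 and by 0.29 and 0.69 on replicate 2. Of 20 measured fibroblast and feeder genes, 10 were lower on replicate 1 alone (2.55% over all genes). On both arrays 2 were lower (Col3a1 and Col5a2, 0.634% over all genes). On replicate 1, 0 lay above the control mean (7736 of 14027 over all genes). The list's median was -1.56 on replicate 1 and 0.39 on replicate 2. The summed intensity of the 20 was 79696 and 72262 in control, 39682 on Sall4a-only replicate 1 and 98115 on replicate 2, 108080 and 101930 in depleted and 64345 and 75965 in Sall4b-only cells. On replicate 1, 17 of the 20 were still called present. The part of differing numbers of fibroblast-like cells in these values was not tested. Of the matrix proteases and their inhibitors, Timp1, Timp2 and Timp3, inhibitors of metalloproteinases, were lower on replicate 1 alone as well, by 1.27, 2.14 and 2.23 log2, while Mmp10 and Mmp12 were the list's members lower on both arrays.

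The granzymes, serine proteases of a cluster also transcribed in placenta, went opposite ways on the replicates. Gzme read 9.37 and 9.76 in control, 4.61 on replicate 1 and 10.75 on replicate 2, and Gzmd 7.59 and 7.21, 3.66 and 9.25. Both were low in Sall4b-only cells, at 5.47 and 5.57 for Gzme and 4.2 and 3.68 for Gzmd, so replicate 1 resembled those arrays and replicate 2 lay above control. Granzymes of this cluster are near-identical, and their probe sets may read each other. Over the 358 genes lower on replicate 1 alone, that array was the lowest of the 8 for 328 (91.6%), whereas it was the lowest for 14.6% of all genes; the rule itself placed it below the control arrays and apart from replicate 2.

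The 120 genes higher on replicate 1 alone were led by smaller differences. St6galnac3, a sialyltransferase, read 8.84 and 8.23 in control, 11 on replicate 1 and 8.90 on replicate 2, with 10.45 and 10.38 in Sall4b-only cells. Hhip, a decoy receptor for Hedgehog proteins, read 7.29 and 7.77 in control, 9.83 on replicate 1 and 7.88 on replicate 2, with 9.21 and 9.19 in depleted cells. For both genes replicate 2 stayed near control while depleted and Sall4b-only arrays were above it. Nr0b1, a nuclear receptor of ES cells, differed by 1.07 on replicate 1 and 0.39 on replicate 2.

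Several contractile and epiblast genes differed between the replicates. Actc1, cardiac alpha actin, read 8.07 and 7.92 in control, 7.48 on replicate 1 and 11.01 on replicate 2, with 10.16 and 11.30 in depleted and 11.85 and 13.00 in Sall4b-only cells. Cnn1, the smooth muscle protein calponin, read 9.65 and 9.48 in control, 9.49 on replicate 1 and 12.25 on replicate 2. Pmp2, a myelin fatty acid-binding protein, read 5.12 and 5.38 in control, 5.2 on replicate 1 and 8.37 on replicate 2. Replicate 2 lay with the depleted and Sall4b-only arrays for Actc1, and replicate 1 with the controls. Of 18 measured genes of the contractile actin list, 4 were lower on replicate 1 alone (Acta2, Ankrd1, Lmod1 and Myl9), with 2.55% over all genes. On replicate 2 alone 3 were higher (2.49% over all genes), with Ankrd1 and Lmod1 counted in both. The smooth muscle actin Actg2 was the 1 member lower on both arrays (0.634% over all genes). On replicate 1, 16 of the 18 lay below the control mean (6291 of 14027 over all genes), and on replicate 2, 16 lay above it (7700 of 14027). Myl9, a myosin light chain, differed by -2.50 on replicate 1 and 0.90 on replicate 2, and Actg2 by -4.86 and -1.12.

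Of 13 measured epiblast genes, 4 were higher and 1 lower on replicate 2 alone (2.49% and 0.535% over all genes). Wnt3, among the 4, was also the 1 gene lower on replicate 1 alone (2.55% over all genes). On replicate 2, 10 of the 13 lay above the control mean (7700 of 14027 over all genes). Wnt3, a Wnt ligand of the primitive streak, read 6.23 and 7.15 in control, 5.67 on replicate 1 and 9.41 on replicate 2. Pou3f1, a POU factor of the epiblast, differed by 0.13 on replicate 1 and 1.75 on replicate 2, and Sox3 by 0.26 and 1.01. The gene lower on replicate 2 alone was Otx2, an epiblast and forebrain homeobox factor, at 8.96 against 11.01 and 10.07 in control and 10.64 on replicate 1. The X-linked homeobox genes Rhox6 and Rhox9 of the trophoblast list were also lower on replicate 2 alone, by 1.53 and 1.45 log2.

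Genes of the state that resembles the 2-cell embryo, which a small share of ES cells enter at any time, were split between the replicates. Of 18 measured members, 7 were lower on replicate 1 alone (2.55% over all genes) and 10 higher on replicate 2 alone (2.49% over all genes). Of these, 5 were counted in both. In the same direction 0 members were apart on both arrays, with 0.221% higher and 0.634% lower over all genes. The median was -0.54 on replicate 1 and 1.02 on replicate 2. On replicate 2 all 18 lay above the control mean, with 7700 of 14027 over all genes. Usp17la, a deubiquitinase, read 11.33 and 11.09 in control, 9.36 on replicate 1 and 12.24 on replicate 2. Pramel7, of a leucine-rich repeat family, read 8.32 and 7.89, 6.7 and 10.07 in the same order, and Zfp352, a zinc-finger gene, 6.54 and 6.63, 5.42 and 7.64. In all 3 replicate 1 was below and replicate 2 above both controls, with adjusted p from 0.929 to 0.987 for the mean. The depleted and Sall4b-only arrays were also above both controls for Usp17la and Pramel7, while Zfp352 read 6.43 and 6.73 in depleted cells. The summed intensity of the 18 was 25649 and 22670 in control, 19162 on replicate 1 and 35359 on replicate 2. It was 29336 and 31187 in depleted and 33054 and 32516 in Sall4b-only cells. Several of these families have many near-identical copies, whose probe sets may read each other.

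Imprinted genes outside the Dlk1-Dio3 region behaved alike only in part. Nnat, neuronatin, read 12.30 and 11.92 in control, 9.73 on replicate 1 and 13.32 on replicate 2, and Mest, a paternally expressed hydrolase, 12.37 and 11.84, 10.08 and 12.25. Peg3, a paternally expressed zinc-finger gene, was lower on replicate 1 alone by 1.06 log2, and Grb10, an adaptor that restrains insulin signalling, was higher there by 1.27. Of 18 measured members, 4 were lower and 1 higher on replicate 1 alone (2.55% and 0.855% over all genes). On replicate 2 alone 3 were higher (2.49% over all genes), with Nnat counted in both. On both arrays 0 members were apart, with 0.221% higher and 0.634% lower over all genes.

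In lists of basic functions few or no genes were apart. Over all genes 0.221% to 2.55% fell in each class, so 0 in lists this short is close to the background and is no result about their members. G2/M genes had a median of 0.44 on replicate 1 and 0.10 on replicate 2, and 0 were apart on any array. Above the control mean lay 22 and 16 of the 23, with 7736 and 7700 of 14027 over all genes. Stress and unfolded protein response genes had medians of -0.18 and -0.34, and 0 of 21 were apart. In the glycolysis (17 measured), cholesterol synthesis (15), Polycomb (19), class I antigen presentation (11) and endothelium (10) lists 0 genes were apart as well. Of 14 NuRD genes 1 was apart, on replicate 2 alone. Sall1, Sall2 and Sall3, the relatives of Sall4, differed by 0.37 (SE 0.22), -0.15 (SE 0.27) and 0.88 (SE 0.23) from control, with adjusted p from 0.399 to 0.921.

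**Figure D4:**
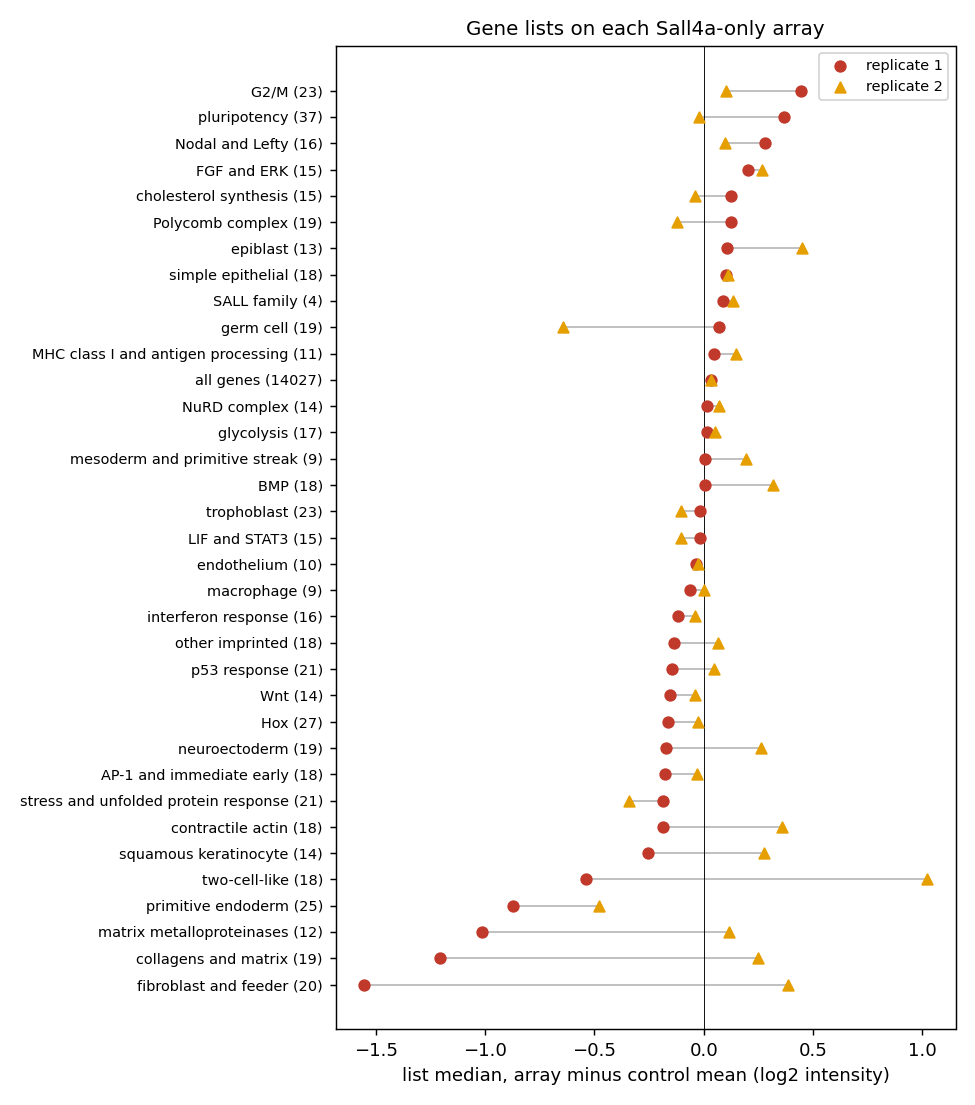
Median over the measured members of each gene list (number in brackets) of the log2 intensity on Sall4a-only replicate 1 (red circle) or replicate 2 (orange triangle) minus the control mean, with all 14027 genes for comparison; the Dlk1-Dio3 list, at -4.81 on replicate 1, is not drawn. Fibroblast, collagen and 2-cell-like lists have medians on opposite sides of 0 (-1.56 and 0.39 for fibroblast and feeder genes), while the primitive endoderm list is below 0 on both (-0.87 and -0.48).

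Sall4a-only cells were also set against the other shRNA groups. Against depleted cells 0 genes passed limma in either direction (0%), with 1096 at an unadjusted p under 0.05 (7.81%), 622 higher (4.43%) and 474 lower (3.38%). Against Sall4b-only cells 0 passed (0%), with 820 at that level (5.85%), 431 higher (3.07%) and 389 lower (2.77%). Without Sall4a-only replicate 2, 287 genes passed against depleted and 47 against Sall4b-only cells. Dynap was the gene named here with the smallest adjusted p against depleted cells (-3.42, SE 0.23, adjusted p = 0.0564). Against Sall4b-only cells Hnf4a (-1.91, SE 0.24) and Krt7 (3.46, SE 0.43) had an adjusted p of 0.215 each. Krt7 read 8.99 and 9.25 in Sall4b-only and 10.09 and 10.73 in depleted cells, both below the control arrays (11.42 and 12.07). Its Sall4a-only arrays read 13.15 and 12.01.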

How the data were processed

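RNA of 8 cultures was amplified, converted to biotin-labelled cDNA and hybridised to 1-colour arrays, per the labels' protocols. Each probe set has a deposited linear intensity and a present, marginal or absent call on each array. The submitters' processing notes name RMA (background correction, normalisation between arrays, probe summary) without a version; how the calls were made is not stated there. Array medians ran from 140.7 to 149.8, and 62.1% to 66.5% of probe sets were called present. The 3 deposited tables held identical values.

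Of 45101 probe sets, 64 are array controls and were not used; the platform annotation names 1 gene for 34945, several for 932 and none for 9160. Probe sets with 1 symbol that were called present on at least 2 arrays (26080) were kept, and the brightest stood for each of 14027 genes. Intensities were put on the log2 scale with no further normalisation. Groups came from the array titles, and 0 columns were unmapped. Using R 4.3.3, limma 3.58.1 (lmFit, eBayes) fitted 4 group means to all 8 arrays, with 4 residual degrees of freedom and 6.20 after moderation. P-values were Benjamini-Hochberg adjusted over all genes (threshold 0.05). SE is that of the fitted difference. Where no array of the dimmer group had a present call, its signal may be background and the fold is uncertain. Taking each dim array at no less than its lowest intensity with a present call left the folds given here unchanged. The fit was tested on simulated data with the same spread for every gene and array. That test does not cover groups of unequal spread, as here.

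Named are Sall4, the 15 genes per direction with the widest gap among genes apart on both arrays, the 10 per direction furthest apart on replicate 1 alone and 5 on replicate 2 alone (a selection of them is described), members of 35 lists apart on both arrays or replicate 1 alone, or up to 4 by p, and core pluripotency and lineage factors; clones were passed over. Other list members (Nodal, Pdgfra, Sox7, Foxa2, Otx2, Rhox6, Rhox9, Cnn1) and further genes apart on both arrays (Tgfbi, Ptn, Podxl) were named after their values were seen. The members, lists, limits and motifs were chosen with earlier results of these data known. Alternatives changed the groups and arrays in the fit, prior, array weights, scaling, filters, probe set rule and limits.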

Additional observations from a re-analysis of the deposited data

How the results depend on the processing

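The count of genes past the threshold in Sall4a-only against control cells was 1 with quantile normalisation, median centring and either filter on present calls. It was 0 with only the groups compared, with the replicate number as a block and with array weights. It was 7 with a trended and robust prior (Mmp12, Dynap, Krt6a, Krtap4-16, Pkm, Proser2 and Sall4), 2 with the mean of a gene's probe sets and 4 with a floor of 32. Leaving out 1 array gave 0 to 110. Against depleted cells the counts were 8 with the trended prior, 6 with probe set means, 1 with the floor and 0 to 287 with 1 array left out; against Sall4b-only cells the last range was 0 to 47. A lone array left in a group is assumed to vary like the others, although the Sall4a-only replicates differed more than those of any other group. The counts from such fits therefore show dependence on single arrays and no more. The adjusted p of Mmp12 was 0.3805 with only the groups compared, 0.05544 with the replicate block and 0.1659 with array weights. Deviations of same-numbered control and Sall4a-only arrays correlated at 0.0694 (-0.116 to 0.568 over the 6 pairs of groups), so the numbers were not taken to pair the cultures.

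With limits of 0.8 and 1.5 log2 in place of 1, genes apart on both arrays numbered 81 and 4 higher and 141 and 35 lower. Replicate 1 alone gave 273 and 20 higher, and 153 lower at 1.5. Replicate 2 alone gave 591 and 107 higher and 170 and 10 lower, and 49 lower with a 0.25 log2 limit on the other replicate, chosen after seeing the data. With a control array left out, both arrays gave 65 to 70 higher and 121 to 142 lower. Replicate 1 alone gave 107 to 164 higher and 346 to 364 lower, and replicate 2 alone 332 to 367 higher and 78 to 93 lower. With 1 array left out, the difference turned for Esrrb (-0.398 to 0.559), Klf4 (-0.725 to 0.267), Nanog (-0.0212 to 0.165), Pou5f1 (-0.0599 to 0.412) and Sox2 (-0.248 to 0.412). Of the other values of single genes under an alternative, 929 kept direction and side of the threshold, 25 passed only under it and 8, all of Mmp12, passed no longer; side and direction say nothing of size, and Proser2 dropped from 2.64 to 0.33 log2 with no filter on present calls. The causes were not tested. With 2 arrays a group, signal close to background limits the genes called absent.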
